A study of Mus musculus with 6 samples.

Results

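The 10 genes described here, Atf3, Sox11, Sprr1a, Gap43, Stmn4, Ecel1, Flrt3, Csf1, Tnfrsf12a and Gpr151, are genes known for induction in sensory neurons after axon injury or for a part in axon regrowth. They were chosen by name from a list, and each was followed through all of its probe sets on an Affymetrix mouse expression array. All 10 were found among the 18193 genes that had a probe set with a single gene symbol, on 20 probe sets. Each of 6 arrays held RNA of 1 pool of sensory neurons of the mouse dorsal root ganglion, with 3 title codes and, under each code, a pool of big and a pool of medium to small neurons. An L3-B pool was made of 50 control neurons. In L3-S and L6-R a pool was made of 20 neurons labelled with DiI, a membrane dye carried back along axons to the cell body. The sources used here do not give the site of the dye, the meaning of the codes, any injury or treatment, the strain, sex and age of the mice, or whether pools shared animals. With 1 array for each combination, the p-values rest on how far these few pools scatter, and some of that scatter may be technical.

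When the peripheral axon of a sensory neuron is cut or crushed, the cell body switches on a set of transcription factors, among them Atf3, Jun and Sox11. Those factors and others raise proteins of the growth cone and cytoskeleton, secreted signals to neighbouring immune cells, and surface receptors. Intact adult sensory neurons also express part of this set, Gap43 in particular.

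The values were the authors' linear signals, with a mean of 150 in every array after 2% of values were trimmed at each end. Differences are those of log2(signal + 32), and the added 32 shrinks any difference that involves signals near or under 32. In each array 55.3% to 59.5% of probe sets were under 32. Where a gene had several probe sets, the one with the highest mean log2 value led. Genes in the upper 50% by mean log2 value were tested (9097 genes, minimum mean 6.41). Of the 10 genes, 8 passed that filter and Ecel1 and Gpr151 did not. Sprr1a passed only through its L6-R signals, since its mean over the other 4 arrays was 5.92; the other 7 were above the minimum without L6-R. For Ecel1 and Gpr151 the values below are from the same fit with no filter on dim genes, and are named so.

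Sensory neuron markers were present in every pool, with 0 of 14 under a signal of 32 in any array. Their summed signal was 71126 to 74313 in L3-B, 64196 to 73771 in L3-S and 73359 to 86904 in L6-R. They did not all move together. Ntrk3 was at 505 and 448 in L6-R (big, then medium to small), 1156 and 791 in L3-S, and 2243 and 2087 in L3-B. Scn10a was at 490 and 287 in L6-R, 105 and 236 in L3-S, and 121 and 82.8 in L3-B. In L6-R over L3-B 1 of the 14 rose and 1 fell at a limma adjusted p under 0.05. Of all tested genes 4.66% rose and 2.85% fell there. Markers of satellite glia and Schwann cells, the cells that wrap these neurons, summed to 12222 to 13256 in L3-B, 14458 to 18008 in L3-S and 15777 to 22453 in L6-R (16 of 19 on the array). Among them the myelin protein gene Mbp was at 1179 and 2857 in L6-R (big, then medium to small), 480.2 and 1073 in L3-S, and 468 and 332 in L3-B. Pmp22 ranged from 2827 to 4305, Mal was highest in both L6-R arrays (146 and 303), and Mag was under 32 in all arrays. S100b and Gfap went the other way, with their lowest signals in L6-R. S100b was at 5114 and 4918 in L6-R, 5149 and 5753 in L3-S, and 6832 and 5546 in L3-B. Gfap, dim in most arrays, was at 4.9 and 9.7 in L6-R, 48.3 and 17.6 in L3-S, and 18.9 and 25.6 in L3-B. Connective tissue and vessel markers summed to 411 to 563 in L3-B, 1525 to 1634 in L3-S and 1217 to 2137 in L6-R. Of 15 blood and immune markers, 10 to 14 were under 32 in each array, Ptprc, Cd68, Aif1 and Itgam among those under 32 in all arrays. Those that were measured included S100a8 and S100a9, at 440.4 and 167 in the L6-R medium to small array and under 40 in the other 5, and C1qb, at 95.2 and 110 in L6-R and 6.6 to 47.4 in the other 4. Their sum was 144 to 203 in L3-B, 166 to 296 in L3-S and 242 to 1046 in L6-R. The ratio of 3′ to 5′ Actb control signal, a measure of RNA integrity that is higher for degraded RNA, was 8.31 and 8.42 in L6-R (big, then medium to small), 5.42 and 12 in L3-S, and 13.9 and 3.73 in L3-B. The signal of a spiked cre control was highest in the L6-R big array (18408, against 8582 to 12750 in the other 5). The Actb ratio was fitted as a covariate, as given in the closing section; the part of the other differences in the results below was not tested. In pooled RNA, fewer cells that express a gene and less RNA per cell cannot be told apart.

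Atf3 encodes a stress-induced transcription factor of the basic leucine zipper family that marks injured sensory neurons. Its signal (chromosome 1, 1 probe set) was 679.5 and 673.5 in L6-R (big, then medium to small, the order used throughout), 110.0 and 65.9 in L3-S, and 121 and 43.1 in L3-B. Both L6-R arrays were far above the other 4, and L3-S and L3-B overlapped. Atf3 rose by 2.59 ± 0.28 log2 in L6-R against L3-S (SE, n = 2 arrays per code, limma adjusted p = 0.00254), 6.01-fold on the log2(signal + 32) scale. Against L3-B it rose by 2.73 ± 0.28 (adjusted p = 0.000909). Between L3-S and L3-B it differed by 0.14, with a 95% confidence interval from -0.49 to 0.77. The rise over L3-S was 2.33 between the big pools and 2.85 between the medium to small pools.

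Sox11 encodes an HMG-box transcription factor found in developing neurons and in those regrowing an axon. The leading of its 6 probe sets (chromosome 12) gave signals of 709 and 873 in L6-R, 122 and 52.6 in L3-S, and 13.0 and 78.6 in L3-B. The L6-R arrays were again above all others, while of the L3-S values one lay within the span of L3-B and one above it. It rose by 2.84 ± 0.43 log2 over L3-S (limma adjusted p = 0.0119) and by 3.54 ± 0.43 over L3-B (adjusted p = 0.00218). The rise over L3-S was 2.26 between big pools and 3.42 between medium to small pools, and leaving out 1 L3-S array gave 2.01 (medium to small left out) or 3.67 (big left out). That call was lost when dim genes were kept (limma adjusted p = 0.0670), when every probe set was tested (0.172) and under a pseudocount of 1 (0.115). In all 6 Sox11 probe sets both L6-R arrays exceeded the other 4. In 1 of these, with 5 arrays under 32, this was not resolved: L6-R medium to small was at 23.4 and L3-B big at 20.8. The differences between L6-R and L3-S over these probe sets ran from 0.85 to 2.84, each from the fit of every probe set. Another Sox11 probe set, chosen after its values were seen, showed signals of 347 and 355 in L6-R, 54.7 and 62.2 in L3-S, and 2.59 and 22.6 in L3-B. On that probe set, with both L3-B values under 32, the order of the codes was L3-B, L3-S, L6-R with no overlap. The same order was seen in 4 of the 6 probe sets, and not in the leading one. In 1 of the 4 all L3-B and L3-S values were under 32. In another the highest L3-B value was 48.8 and the lowest L3-S value 49.3, so the order of L3-B and L3-S was not resolved there.

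Sprr1a encodes a small proline-rich protein of the epidermal cornified envelope that injured sensory neurons also make. Its signal (chromosome 3, 1 probe set) was 294 and 136 in L6-R, 64.4 and 44.7 in L3-S, and 19.6 and 3.09 in L3-B. The codes were ordered L3-B, L3-S, L6-R without overlap, with both L3-B arrays under 32. Sprr1a rose by 1.45 ± 0.24 log2 in L6-R over L3-S (limma adjusted p = 0.0180) and by 2.46 ± 0.24 over L3-B (adjusted p = 0.000801). L3-S stood 1.01 above L3-B (interval 0.46 to 1.57) but did not pass (adjusted p = 0.116). The call of L6-R against L3-S was lost when the big array of either code was left out, with no filter on dim genes (adjusted p = 0.0586 by limma) and with every probe set tested (0.138).

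The windows from 250 bases before to 50 bases after the start sites of Atf3 and Sprr1a are shown because they were the members' windows that held the letters bound by ATF and AP-1 factors, the family of Atf3 and its partner Jun. They are RefSeq sequences of build GRCm38.p6, Atf3 at chr1:191183284-191183583 and Sprr1a at chr3:92485832-92486131, both on the minus strand, written 5′ to 3′ along the gene. Capitals mark every match, on either strand, to the ATF/CRE core ACGTCA, the AP-1 site TGACTCA, the TATA box TATAAA, the GC box GGGCGG and the E-box CACGTG.
Atf3: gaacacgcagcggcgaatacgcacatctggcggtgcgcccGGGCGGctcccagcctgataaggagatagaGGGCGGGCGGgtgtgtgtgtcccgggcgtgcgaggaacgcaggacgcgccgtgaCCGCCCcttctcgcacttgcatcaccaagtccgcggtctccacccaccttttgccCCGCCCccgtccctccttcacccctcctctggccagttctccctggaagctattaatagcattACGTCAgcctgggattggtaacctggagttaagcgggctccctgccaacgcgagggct
Sprr1a: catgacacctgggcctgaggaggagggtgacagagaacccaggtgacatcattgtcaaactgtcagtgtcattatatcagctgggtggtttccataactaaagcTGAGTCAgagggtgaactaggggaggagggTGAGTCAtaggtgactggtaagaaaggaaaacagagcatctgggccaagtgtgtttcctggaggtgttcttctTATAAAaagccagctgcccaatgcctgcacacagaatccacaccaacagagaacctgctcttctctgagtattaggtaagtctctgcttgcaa

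The Atf3 window held 1 ATF/CRE core, starting at -8 from the start site, and 5 GC boxes of which 2 overlapped. The Sprr1a window held 2 AP-1 sites, starting at -146 and -116 from the start site, and 1 TATA box. Of all 32851 windows of 300 bases, 7.51% held the ATF/CRE core, 5.2% the AP-1 site, 13.6% the TATA box, 35.7% the GC box and 7.15% the E-box. Windows were found for 7 of the 10 genes, and the ATF/CRE core was in 1 of them, the AP-1 site in 1, the TATA box in 1, the GC box in 4 (Atf3, Csf1, Sox11 and Tnfrsf12a) and the E-box in 0. A match is a description of the letters in the window and no measurement of binding.

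**Figure D1:**
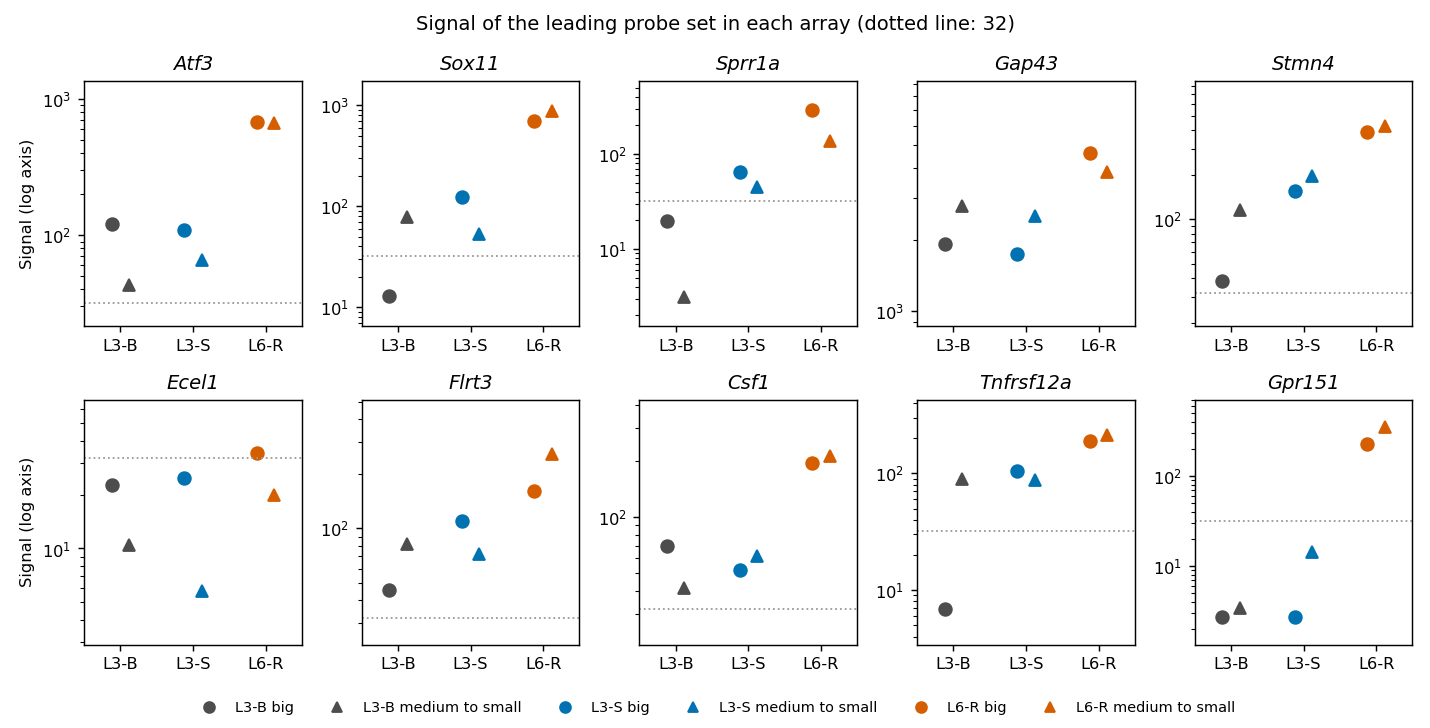
Signal of the leading probe set of each gene in each of the 6 arrays on a log axis, with 1 panel per gene, colour for the title code and shape for the size class; the dotted line is a signal of 32. Both L6-R points lie above the other 4 in 9 of the 10 panels, Ecel1 being the exception.

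Gap43 encodes a growth cone phosphoprotein of the inner membrane, and it was expressed in every pool. Its signal (chromosome 16, 1 probe set) was 4636 and 3859 in L6-R, 1734 and 2502 in L3-S, and 1909 and 2760.0 in L3-B. Both L6-R arrays were higher than the rest, and the L3-S and L3-B arrays overlapped. The differences did not pass: 1.01 ± 0.27 log2 over L3-S (interval 0.40 to 1.62, limma adjusted p = 0.0922) and 0.87 ± 0.27 over L3-B (adjusted p = 0.0953). The L6-R excess over L3-S was 1.40 in the big pair and 0.62 in the medium to small pair.

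Stmn4 encodes a neuronal stathmin, a protein that binds tubulin and regulates microtubule assembly. Its signal (chromosome 14, 1 probe set) was 390.5 and 429 in L6-R, 156 and 197 in L3-S, and 38.1 and 115 in L3-B. The 3 codes did not overlap. Stmn4 rose in L6-R over L3-B by 2.12 ± 0.28 log2 (limma adjusted p = 0.00314). The steps between neighbouring codes did not pass: L6-R stood 1.09 ± 0.28 above L3-S (adjusted p = 0.0857) and L3-S 1.03 ± 0.28 above L3-B (adjusted p = 0.167). Without the L3-B medium to small array both steps passed, and without the L3-B big array the step from L3-S to L6-R did.

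Csf1 encodes a cytokine that acts on macrophages and microglia through the receptor Csf1r. The leading of its 4 probe sets (chromosome 3) showed signals of 195 and 213 in L6-R, 51.9 and 61.2 in L3-S, and 70.0 and 41.3 in L3-B. On this probe set the L6-R arrays stood apart and the other codes overlapped. It led only through its L6-R signals, with a mean log2 value of 6.93 against 6.88 for the next probe set. Over the arrays outside L6-R its mean was 6.45, against 6.93 for the next. The calls of Csf1 in comparisons with L6-R are therefore no independent support. Signals of Csf1 on the leading probe set were compared as for the other genes. It rose by 1.41 ± 0.25 log2 over L3-S (limma adjusted p = 0.0210) and by 1.45 ± 0.25 over L3-B (adjusted p = 0.0102). The call over L3-S was lost when the L3-S big (adjusted p = 0.0674), the L6-R big (0.0659) or the L6-R medium to small array (0.176) was left out, and in 4 other alternatives. The call over L3-B was lost when the last of these was left out (0.0890), with the mean of the probe sets (0.283) and with every probe set tested (0.0823). The other 3 probe sets did not show this. The next showed signals of 81.0 and 77.1 in L6-R, 87.2 and 79.0 in L3-S, and 108 and 86.0 in L3-B, a difference of -0.05 ± 0.18 between L6-R and L3-S. The remaining 2, mostly under or near 32, differed by 0.08 and 0.13. When a gene's probe sets were averaged, Csf1 differed by 0.39 and did not pass (adjusted p = 0.412). Csf1r showed signals of 69.3 and 122 in L6-R, 71.1 and 18 in L3-S, and 64.0 and 25.2 in L3-B. Its difference of 0.80 between L6-R and L3-S did not pass (limma adjusted p = 0.345). Csf1r passed the filter only through its L6-R signals.

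Tnfrsf12a encodes Fn14, a small receptor of the TNF receptor family. The leading of its 2 probe sets (chromosome 17) showed signals of 191 and 215 in L6-R, 105 and 87.5 in L3-S, and 6.84 and 88.8 in L3-B. The L3-B big array was the only one under 32, and the other L3-B array was level with L3-S. It rose in L6-R over L3-B by 1.77 ± 0.40 log2 (limma adjusted p = 0.0330), by 2.52 in the big pair and 1.03 in the medium to small pair. Over L3-S it stood 0.87 ± 0.40 higher (interval -0.04 to 1.78, adjusted p = 0.338). The rise over L3-B was lost without the L3-B big array, the array with the highest Actb ratio, and without the L6-R big array. It was also lost when dim genes were kept, when probe sets were averaged, when every probe set was tested and under a pseudocount of 1. The second probe set gave 0.76 over L3-S and 1.27 over L3-B.

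Flrt3 encodes a leucine-rich repeat membrane protein that binds Unc5 receptors and latrophilins. The leading of its 2 probe sets (chromosome 2) showed signals of 162 and 257 in L6-R, 110 and 72.5 in L3-S, and 45.7 and 81.8 in L3-B. The L6-R arrays were the highest, and the other codes overlapped. Flrt3 rose over L3-B by 1.33 ± 0.29 log2 (limma adjusted p = 0.0305) and did not pass over L3-S (0.96 ± 0.29, adjusted p = 0.140). The call over L3-B was lost in 7 of 17 alternatives. These were leaving out the L3-B big (adjusted p = 0.0890 by limma) or the L6-R medium to small array (0.227), a pseudocount of 1 (0.0549) or a larger one (0.0508), no filter on dim genes (0.0886), the mean of the probe sets (0.0515) and every probe set tested (0.180). The second probe set gave 1.27 over L3-S and 1.29 over L3-B.

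Gpr151 encodes an orphan G-protein-coupled receptor of the habenula that sensory neurons express after nerve injury. Its signal (chromosome 18, 1 probe set) was 225 and 352 in L6-R, 2.71 and 14.6 in L3-S, and 2.71 and 3.48 in L3-B. All 4 arrays outside L6-R were under 32 and therefore not resolved from background, whereas both L6-R arrays were well above it. In the fit with no filter on dim genes Gpr151 rose by 2.97 ± 0.22 log2 over L3-S (limma adjusted p = 0.0102) and by 3.16 ± 0.22 over L3-B (adjusted p = 0.00374). The rise over L3-S was 2.89 in the big pair and 3.05 in the medium to small pair. Since the lower side was not resolved from background, the size of these differences is set by the added 32. With a pseudocount of 1 the difference over L3-S was 5.22 and over L3-B 6.11, and with a larger one 1.59 and 1.65. In that fit the call over L3-S was lost when either L6-R array, or the medium to small array of L3-S, was left out. The call over L3-B was lost when the medium to small array of L6-R was, and with a pseudocount of 1 (adjusted p = 0.199 by limma).

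Ecel1 encodes a neuronal membrane protein of the neprilysin metalloprotease family. It was dim in all pools, and showed signals of 34.0 and 19.9 in L6-R, 24.8 and 5.81 in L3-S, and 22.6 and 10.4 in L3-B (chromosome 1, 1 probe set). The codes overlapped, and only the L6-R big array was above 32. With no filter it differed by 0.34 ± 0.20 log2 between L6-R and L3-S (limma adjusted p = 0.564), and a difference at this level cannot be resolved on these arrays.

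Set side by side, L6-R against L3-S was the comparison in which both sides carried DiI and held 20 neurons. Of the 8 tested genes 4 rose (Atf3, Sox11, Sprr1a and Csf1), 0 fell and 4 did not pass (Gap43, Stmn4, Flrt3 and Tnfrsf12a), where 1.26% of all tested genes rose, 1.91% fell and 3.18% passed in either direction. Sprr1a was tested only because its L6-R signals carried it past the filter, and without it the count is 3 of 7. That count still holds Csf1, whose probe set led only through its L6-R signals. With no filter on dim genes, Atf3 and Gpr151 were the 2 of 10 that rose, where 0.225% of 18193 genes did. Over all 10 genes, the median difference was 1.25 log2 (1.42 in the big pair and 1.26 in the medium to small pair), against -0.01 over all tested genes. All 10 were higher in L6-R in both size classes, Ecel1 by 0.22 and 0.46, which cannot be resolved on these arrays. The share of all genes higher in both size classes was not counted. In the fit, 48.75% of all tested genes were higher in L6-R than in L3-S. Among tested genes Sox11 ranked 7th by the size of its rise and Atf3 11th, while Tnfrsf12a ranked 288th.

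**Figure D2:**
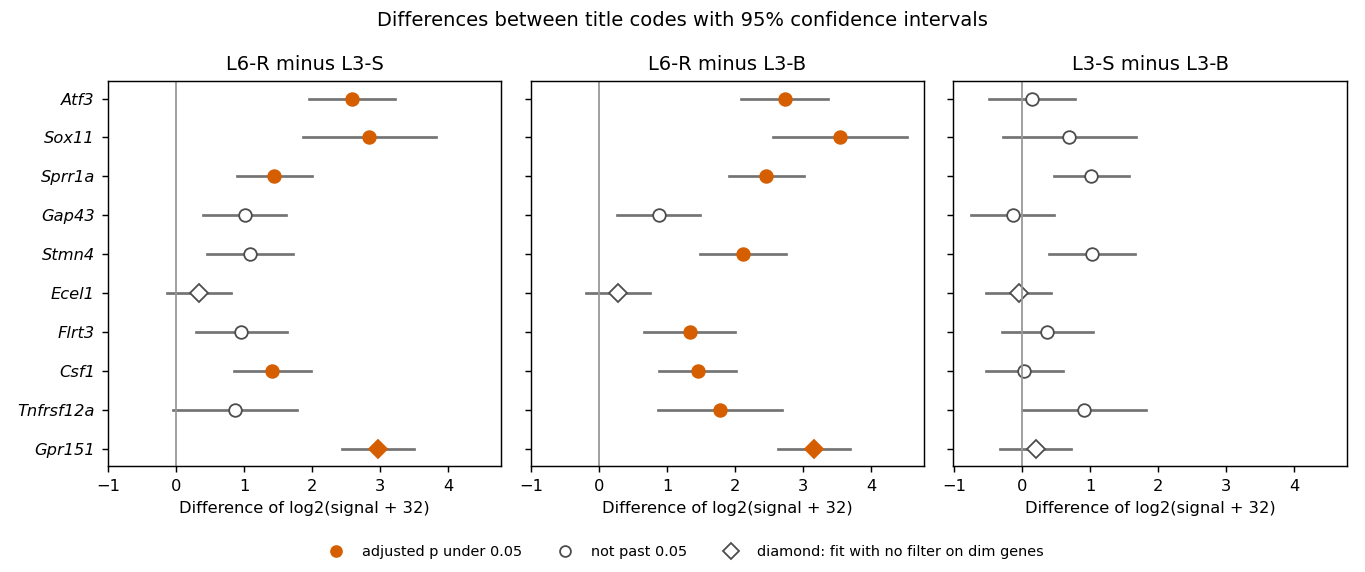
Differences of log2(signal + 32) between title codes for each gene, with 95% confidence intervals from the limma fit to all 6 arrays; filled symbols passed an adjusted p of 0.05, and diamonds mark Ecel1 and Gpr151, which come from the fit with no filter on dim genes. All filled symbols are in the comparisons with L6-R, and L3-S against L3-B has none.

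Against the L3-B control neurons, L6-R pools differed also in DiI and in the number of neurons (20 against 50), which cannot be told apart from the code. Of the 8 tested genes 7 rose (Atf3, Sox11, Sprr1a, Stmn4, Tnfrsf12a, Csf1 and Flrt3), and Gap43 did not pass, where 4.66% of all tested genes rose, 2.85% fell and 7.51% passed in either direction. Without Sprr1a the count is 6 of 7, which still holds Csf1, whose probe set led only through its L6-R signals. With no filter, 6 of 10 rose (Atf3, Sox11, Sprr1a, Stmn4, Csf1 and Gpr151), where 1.68% of all genes did. The median over the 10 genes was 1.95 log2, with 2.37 in the big pair and 1.70 in the medium to small pair. Satellite glia and Schwann cell markers also moved in this comparison, with 5 of 12 tested markers past the threshold, all higher in L6-R, and a median of 1.03. Of 4 tested connective tissue and vessel markers 3 rose, with a median of 1.43. Between L6-R and L3-S, 0 of the 12 and 0 of the 4 passed, with medians of 0.29 and 0.53. The part of these cells in the differences of the 10 genes was not tested.

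In L3-S against L3-B, where the L3-B arrays are the same as above, 0 of the 8 tested genes passed (0 of 10 with no filter), where 0.923% of tested genes rose, 0.0989% fell, 1.02% passed in either direction, and 0.077% of all genes rose with no filter. At an unadjusted p under 0.05 there were 2 (Sprr1a and Stmn4), against 10.2% of all tested genes. With the Actb ratio as a further covariate 4 passed (Sox11, Sprr1a, Stmn4 and Tnfrsf12a), in a fit with fewer residual degrees of freedom that called 512 genes in all. The median was 0.28 log2, with 0.46 in the big pair and 0.17 in the medium to small pair. Sprr1a (0.90 and 1.13) and Stmn4 (1.42 and 0.64) were higher in L3-S in both pairs. For Sox11 the big pair differed by 1.78 and the medium to small pair by -0.39, and for Tnfrsf12a by 1.82 and -0.01. In both genes the L3-B big array had the lowest signal of all 6.

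**Figure D3:**
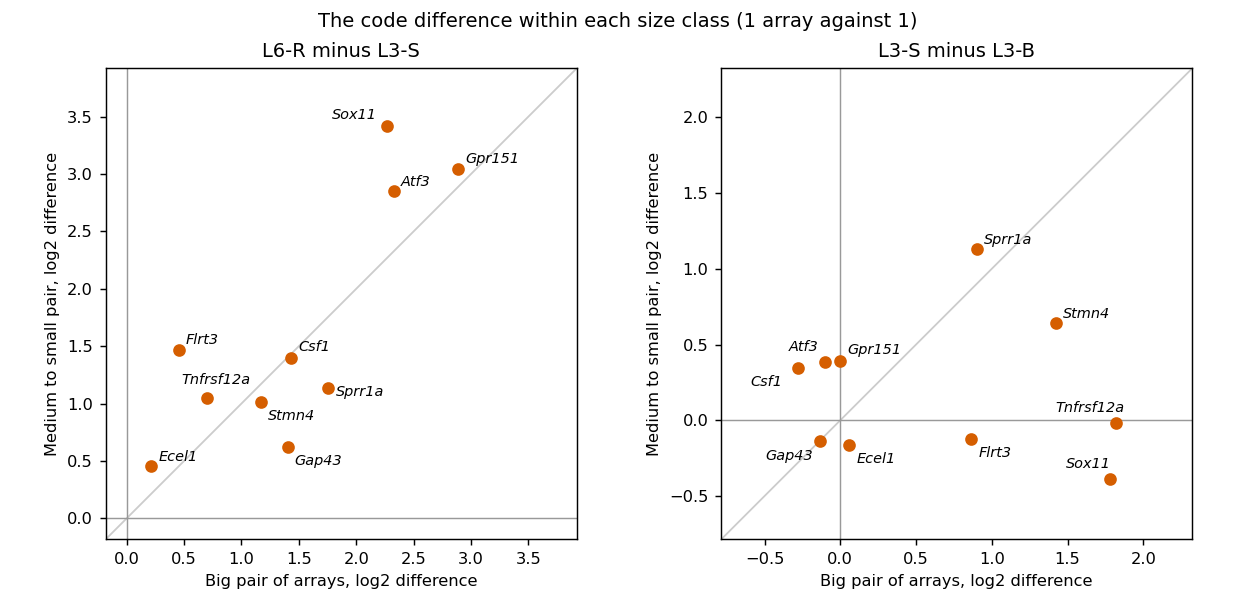
The code difference of each gene in the big pair of arrays (horizontal axis) against that in the medium to small pair (vertical axis), both as differences of log2(signal + 32) and each of 1 array against 1, with the diagonal where the pairs are equal. All 10 genes lie above 0 on both axes for L6-R against L3-S, while for L3-S against L3-B they scatter around 0 on the vertical axis. The share of all genes above 0 on both axes was not counted.

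In big against medium to small pools, none of the 8 tested genes passed by limma, where 0% of all tested genes passed. The 10 genes had a median of -0.24 log2, with 4 higher and 6 lower in big neurons. At an unadjusted p under 0.05 there were 2 of the 8, Atf3 at 0.52 and Sprr1a at 0.61, against 3.52% of tested genes. Ecel1, not tested there, differed by 0.43 in the fit with no filter. Sprr1a, higher in big pools in all 3 codes, differed by 0.56 in L3-B, 0.33 in L3-S and 0.95 in L6-R. Atf3 differed by 1.02 in L3-B, 0.54 in L3-S and 0.01 in L6-R.

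**Figure D4:**
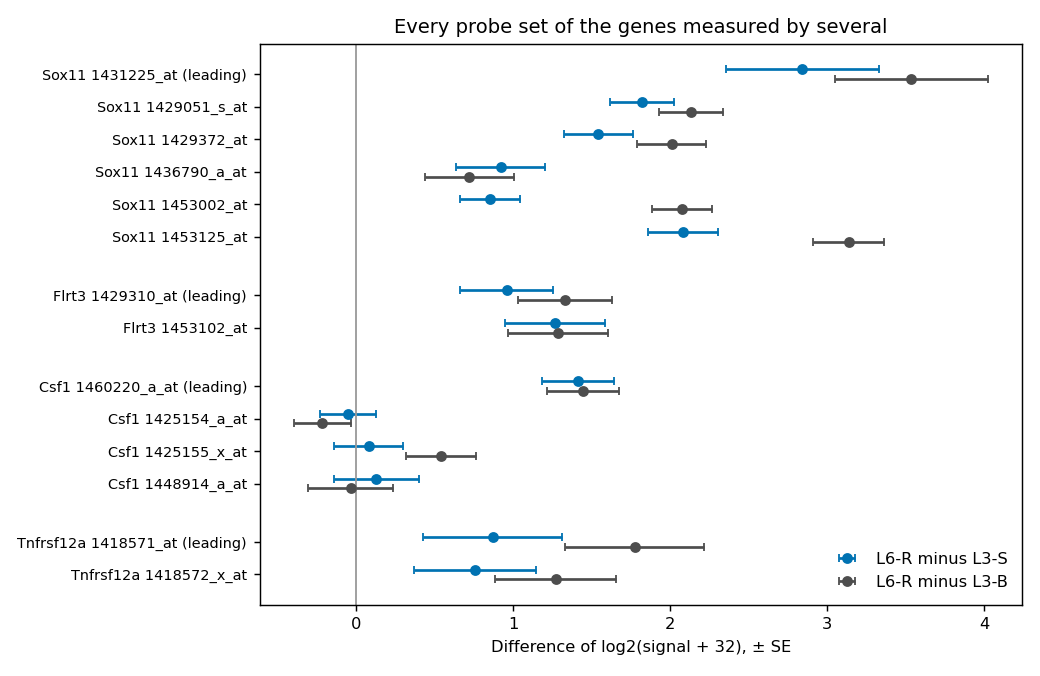
Differences of log2(signal + 32), with the SE, for every probe set of Sox11, Flrt3, Csf1 and Tnfrsf12a, from the fit of every probe set; blue is L6-R minus L3-S and grey is L6-R minus L3-B. All probe sets of Sox11, Flrt3 and Tnfrsf12a lie to the right of 0, whereas for Csf1 only the leading probe set stands clear of it, at 1.41 and 1.45.

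For the leading probe sets, both L6-R arrays exceeded the other 4 in 9 of 10, where 11.7% of all 18193 genes did so. The 9 include Csf1, whose probe set led only through its L6-R signals. Across probe sets this was so in 16 of 20, 6 of them of Sox11. The share over all probe sets was not counted. The 4 probe sets without this order were that of Ecel1 and 3 of Csf1.

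Other genes of the injury response were taken from lists, some of which share genes. The counts of these lists are to be read against all tested genes. In L6-R against L3-S, 1.26% of those rose and 1.91% fell. The shares were 4.66% and 2.85% in L6-R against L3-B, and 0.923% and 0.0989% in L3-S against L3-B. Of the genes named below, Tubb6, Npy, Lgals3, Osmr, Gal, Cd44, Cdkn1a and Trpv1 passed the filter only through their L6-R signals. The same was true of Unc5b, Arhgap31, Zmat4 and Plek2. The mean log2 value of each over the arrays outside L6-R was under the minimum of 6.41. Their calls in comparisons with L6-R, and the counts that hold them, are therefore no independent support. Of 15 tested transcription factors 1 rose in L6-R over L3-S, Socs3, an inhibitor of cytokine signalling listed with them, at 1.58 ± 0.30 log2 (limma adjusted p = 0.0285). Its signal was 652 and 1041 in L6-R, 218 and 295 in L3-S, and 296 and 203 in L3-B. The list's median was 0.55, against -0.01 over all tested genes. Jun, the partner of Atf3 in injured neurons, did not pass in any comparison: 0.58 over L3-S (adjusted p = 0.25) and 0.07 over L3-B, and showed signals of 973 to 1671 in all 6 arrays. Over L3-B 4 factors rose, namely Socs3, Myc (1.01), Fosl2 (0.92) and Smad1 (0.88, adjusted p = 0.0468).

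Of 27 tested growth cone and cytoskeleton genes 2 rose over L3-S and 0 fell, with a median of 0.44. The beta-tubulin Tubb6 showed signals of 984 and 904 in L6-R, 78.4 and 50.6 in L3-S, and 37.8 and 13.6 in L3-B and rose by 3.35 ± 0.23 log2 (limma adjusted p = 0.000566). The actin-bundling protein Fscn1 rose by 1.46 ± 0.26 (adjusted p = 0.0226). Over L3-B 6 rose, Tubb2b (2.48) and the actin-binding kinase C substrate Marcks (2.14) among them. Fscn1, Tubb2b and Marcks were also the 3 that rose in L3-S over L3-B (2.00, 1.47 and 1.34). The other stathmins did not pass over L3-S, with Stmn1 at 0.50, Stmn2 at 0.44 and Stmn3 at 0.00.

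Of 19 tested secreted and surface proteins 7 rose over L3-S and 0 fell, with a median of 1.05. The neuropeptide Npy (4.39), the lectin Lgals3 (3.46), the oncostatin M receptor Osmr (2.66) and the neuropeptide Gal (1.63) had the smallest p-values. Over L3-B 9 rose and 1 fell in L6-R, and 2 rose and 0 fell in L3-S, Adcyap1 (2.41) and Cd44 (1.955). Of 16 enzyme, stress and cell death genes 4 rose over L3-S (median 0.45). These were the cell cycle inhibitor Cdkn1a (2.45), the phosphatase Dusp1 (1.39), and Gadd45g (1.33) and Gadd45a (1.28), growth arrest genes. Over L3-B 4 rose and 0 fell in L6-R, and 0 passed in L3-S. Genes known to fall in sensory neurons after axon injury moved both ways. Of 24 tested, 3 rose and 3 fell in L6-R against L3-S, with a median of 0.10. Against L3-B, 7 rose and 5 fell in L6-R, and 3 rose and 0 fell in L3-S. Tac1 had the smallest p in both comparisons with L3-B, and rose by 5.02 in L6-R and 3.47 in L3-S. For L6-R minus L3-S, the calcium buffer Pvalb differed by -5.07 ± 0.32 (limma adjusted p = 0.000566). The potassium channels Kcnc4 (-2.58) and Kcnd3 (-2.17) also fell in that comparison, whereas the capsaicin receptor Trpv1 rose (2.24). For L6-R minus L3-B, Pvalb differed by -3.26 and Trpv1 by 3.36. Pvalb was itself higher in L3-S than in L3-B, by 1.81 (limma adjusted p = 0.0435).

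**Figure D5:**
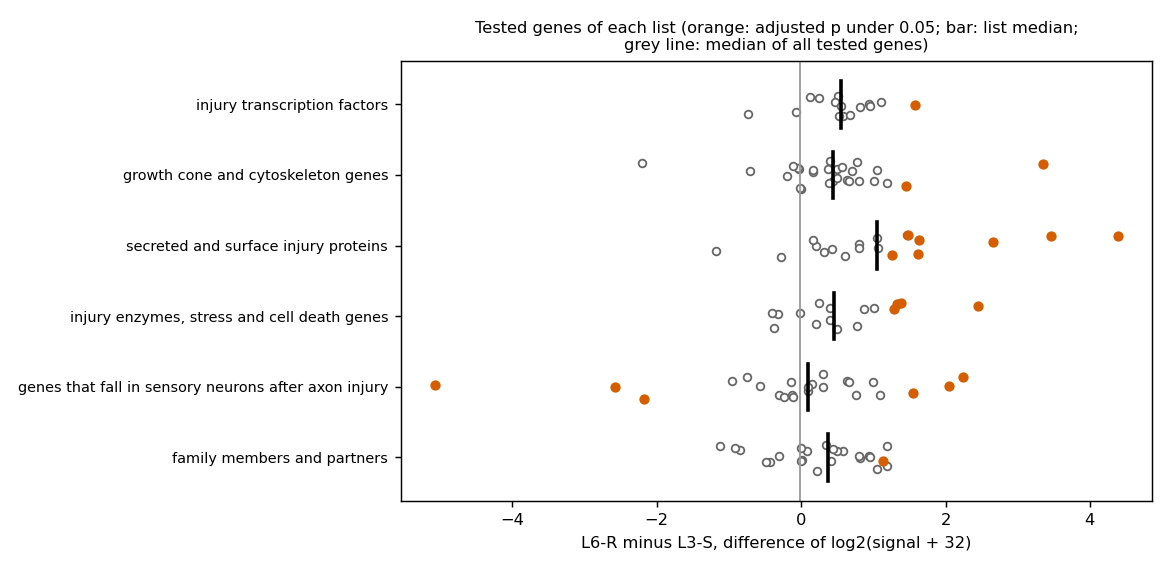
Difference of log2(signal + 32) between L6-R and L3-S for the tested genes of each of 6 lists, with 1 point per gene (orange: adjusted p under 0.05), a black bar at the list median and a grey line at the median of all tested genes. The list of secreted and surface proteins has the highest median, 1.05, and the list of genes that fall after injury spreads on both sides of 0.

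Partners of the 10 genes were described from a further list, of which 24 were tested. In L6-R over L3-S 1 rose and 0 fell, with a median of 0.38, where 1.26% of all tested genes rose and 1.91% fell, and over L3-B 5 rose and 2 fell, where 4.66% rose and 2.85% fell. For Flrt3, the receptor Unc5b showed signals of 217 and 309 in L6-R, 89.1 and 113 in L3-S, and 2.6 and 19.5 in L3-B. It rose in each step, by 1.65 ± 0.22 log2 in L3-S over L3-B (limma adjusted p = 0.0164) and by 1.13 ± 0.22 in L6-R over L3-S (adjusted p = 0.0341). Unc5b passed the filter only through its L6-R signals, since its mean log2 value over the arrays outside L6-R was under 6.41. The latrophilins Adgrl2 (1.41) and Adgrl3 (1.40) rose in L6-R over L3-B, and Fgfr1, a receptor that Flrt3 can also bind, fell by 2.09 (adjusted p = 0.00484). The latrophilin Adgrl1 (-0.57) and the receptor Unc5c (-0.54) were lower in L6-R than in L3-B and did not pass. Unc5a and Unc5d did not pass the filter and were not tested. Mme, the neprilysin peptidase related to Ecel1, fell by 1.33 in L6-R over L3-B (limma adjusted p = 0.00823). Sprr1b, the close relative of Sprr1a, was under 32 in all 6 arrays, between 0.3 and 9.0.

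The genes most like Atf3 were found by the root mean square difference between log2 profiles over the 6 arrays, each centred on its own mean, among 9089 tested genes. Mical1, an enzyme that oxidises actin, was nearest at 0.14 log2, and showed signals of 887 and 873 in L6-R, 133 and 100.4 in L3-S, and 177 and 46.4 in L3-B. Stac (0.30), Agtr1b (0.40), Tifa (0.43) and Arhgap31 (0.43) followed. For the mean profile of the 8 tested genes the nearest were Zmat4 (0.05), Cmbl (0.12), Tmem176b (0.14), Plek2 (0.18) and Cacna2d1, the calcium channel subunit that binds gabapentin (0.19). Arhgap31, Zmat4 and Plek2 passed the filter only through their L6-R signals. With 6 arrays and 9089 genes, close profiles are a description only.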

How the data were processed

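Each of 6 arrays measured total RNA of 1 pool of neurons, purified with a picopure kit per the labels' protocols. The deposited table gives the authors' linear signal intensity per probe set (45037 probe sets and 64 controls). Its scaling was found from the values, and the summary method is not given in the sources used here; values were not normalized again. Probe sets were named from the platform annotation of GEO: 34945 had 1 symbol, 932 several and 9160 none, and 0 symbols changed against a current gene table. R 4.3.3 with limma 3.58.1 fitted code and size class additively to log2(signal + 32) over all 6 arrays (lmFit, eBayes, 2 residual and 6.46 prior degrees of freedom, two-sided), with Benjamini-Hochberg adjustment over 9097 genes and a threshold of 0.05. An interaction of code and size could not be fitted. The fit was tested on simulated data. The 10 genes, the lists and the naming rule were chosen with earlier results of these data known. The rule picked, from each list and per comparison, up to 4 genes past the threshold with the smallest p, or the first gene where none passed. Not every gene so picked is named in the text. Jun, the stathmins, Adgrl1, Adgrl3, Unc5a, Unc5c, Unc5d, Csf1r and Sprr1b were added after their values were seen. Alternatives covered scaling, pseudocount, filter, probe set choice, variance model, covariate and arrays used. The number of arrays limits the precision.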

Additional observations from a re-analysis of the deposited data

Results flagged for a closer look

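For 4 genes the difference took opposite signs in different size classes or codes, by at least 0.25 log2 on each side. These differences rest on 1 array against 1 and were not tested. For Sox11, L3-S minus L3-B was 1.78 between big pools and -0.39 between medium to small pools; big minus medium to small was -1.30 in L3-B, 0.87 in L3-S and -0.29 in L6-R. For Csf1, L3-S minus L3-B was -0.28 in the big pair and 0.35 in the medium to small pair. For Gap43, big minus medium to small was -0.53 in L3-B, -0.52 in L3-S and 0.26 in L6-R. For Flrt3 it was -0.55 in L3-B, 0.44 in L3-S and -0.58 in L6-R. No such opposite signs occurred for the 10 genes in L6-R against L3-S or against L3-B.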

How the results depend on the processing

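Each alternative changed 1 choice, and some thereby changed which of the 10 genes were tested. With a pseudocount of 1, 7 were tested (not Sprr1a). The number was 9 with a larger one or with the mean of the gene's probe sets (Gpr151 added). It was 10 with no filter or with every probe set tested, the last with adjustment over 45037 probe sets and no filter. Of the 10 genes, 4 passed in L6-R against L3-S, 7 in L6-R against L3-B and 0 in L3-S against L3-B. The counts are to be read against all genes called, in L6-R against L3-S 289 of 9097 in the main fit. There 1 passed with a pseudocount of 1 (134 in all) and 2 with no filter (107 of 18193). With the upper 25% of genes 0 passed (115 of 4549), where 1 of the 10 was tested. With every probe set tested 1 passed (24 of 45037). With the Actb ratio in the fit 8 passed (994 in all), and with only the 4 arrays compared 7 (653). With a larger pseudocount 6 passed (309), and with array weights 6 (633). In L6-R against L3-B the main fit called 683 in all, and the count was 4 with a pseudocount of 1 (481). It was 0 with the upper 25% (299 of 4549) and 3 with every probe set tested (278 of 45037). In L3-S against L3-B it was 4 with the Actb ratio (512 in all, against 93 in the main fit). Leaving out 1 array at a time also changed these counts and those over all genes, with the lone array of a code assumed to vary like the others.

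Signs turned as follows. Other Csf1 probe sets gave -0.05 (L6-R against L3-S), -0.21 and -0.034 (L6-R against L3-B), and -0.16 and -0.16 (L3-S against L3-B). Csf1 in L3-S against L3-B was -0.085 with quantile normalization and -0.002 with the Actb ratio, and by size -0.03 with array weights. A Sox11 probe set gave -0.20 in L3-S against L3-B and 0.35 by size, and the second Flrt3 probe set 0.058 by size. With 1 array left out, L3-S against L3-B ran from -0.24 to 0.51 for Atf3, -0.14 to 1.53 for Sox11, -0.34 to 0.06 for Gap43, -0.13 to 0.87 for Flrt3, -0.27 to 0.34 for Csf1, -0.17 to 0.062 for Ecel1 and -0.04 to 0.43 for Gpr151. Big against medium to small ran from -0.79 to 0.29 for Sox11, -0.13 to 0.18 for Csf1 and -0.89 to 0.026 for Tnfrsf12a. Of the values whose sign turned, those of Csf1 in the comparisons with L6-R were the only ones that had passed; the cause was not tested. Atf3 passed in L6-R against L3-S in 16 of 17 alternatives, the exception being every probe set tested (adjusted p = 0.0764 by limma). Gpr151 passed over L3-S with the filter under the larger pseudocount and under the mean of the gene's probe sets. It entered those fits only through its L6-R signals. The count of 6 genes that passed with the larger pseudocount includes it. With the mean of the gene's probe sets 4 passed over L3-S (193 genes in all), Gpr151 among them and Csf1 not. With no filter Gpr151 did not pass over L3-S with a pseudocount of 1 (adjusted p = 0.294 by limma) or the larger one (0.0734), nor over L3-B with a pseudocount of 1 (0.199). No paired analysis was possible because each code and size has 1 array; size class is already a term of the fit. Dim signals limit Ecel1 and Gpr151.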
